A study of Danio rerio with 15 samples.

Results

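The genes described here encode the subunits of the proteasome and the proteins that activate, inhibit or assemble it. They were chosen by name, as genes whose only annotated symbol on a probe set begins with psma to psmg followed by a digit, and each gene was read from its probe set with the highest mean over the 15 arrays. This gave 50 genes, represented by 61 probe sets, of 8793 genes named on the arrays. By role they comprised 8 alpha-ring and 7 beta-ring subunits of the core particle, 5 immune-type beta subunits, 7 ATPases and 14 other proteins of the regulatory cap, 4 alternative activators and inhibitors, and 3 assembly chaperones. The rule also took 2 genes that are not subunits: psmc3ip, a cofactor of meiotic recombination, and psme3ip1, a protein that binds the activator Psme3.

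The proteasome is the protease complex that degrades most ubiquitin-tagged proteins in the cytosol and nucleus. Its barrel-shaped core has outer rings of alpha subunits, which gate the entrance, and inner rings of beta subunits, of which a few are proteolytic. A cap binds ubiquitin chains, removes them and unfolds the substrate with a ring of ATPases. In mammalian cells the subunit genes are known to be transcribed together, through the factor NFE2L1, when proteasome activity is inhibited, and interferon replaces the proteolytic beta subunits with immune forms.

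The study exposed zebrafish larvae to fluoxetine or sertraline, antidepressants that block serotonin reuptake (SSRIs), and measured RNA on 15 one-colour Affymetrix arrays. Larvae entered the exposure 72 h after fertilisation and stayed in it for 96 h without food, living on yolk. The groups were fluoxetine at 25 µg/L, fluoxetine at 250 µg/L, sertraline at 25 µg/L, sertraline at 250 µg/L and a control in the same water without either drug, with 3 beakers each. Beakers held about 100 larvae, whose whole bodies were pooled for RNA. The labels do not tie each array to a beaker; the 3 arrays of a group were taken as its 3 beakers, and if they were not, the p-values measure a spread that may be technical. The spread between single larvae was not measured. The strain and the carrier of the drug stocks are not given in the sources used here.

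Values are the deposited signals, whose log2 scale was read from their range and is not stated in a header, with array medians from 4.57 to 4.65, and a difference of 1 is a 2-fold difference. Differences between groups carry the standard error (SE) and 95% interval of a limma fit over 15502 probe sets, with p-values adjusted by Benjamini-Hochberg over all of them within each comparison. The threshold was an adjusted p of 0.05. With so few arrays the precision is limited, and the median half-width of a 95% interval over all probe sets was 0.24. RNA quality was read from the signal of the 3' minus the 5' GAPDH control probe sets, whose mean was 1.66 in control. It was 1.96 in low and 1.45 in high fluoxetine, and 2.08 in low and 2.27 in high sertraline, where low and high stand for 25 and 250 µg/L. The high sertraline arrays read 1.89, 3.16 and 1.77 and the control arrays 1.73, 1.55 and 1.69. The second high sertraline array thus raised its group mean. The means of both sertraline groups were above control at p = 0.1 each in exact two-sided permutation tests, the smallest p that 3 against 3 arrays allow, and those of both fluoxetine groups gave p = 0.4.

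No proteasome gene passed the test in any comparison. In fluoxetine at 25 µg/L against control, 0 of the 50 genes passed where 2.53% of all probe sets did, and 4 genes had an unadjusted p under 0.05 where 19.2% of all probe sets did. At 250 µg/L fluoxetine 0 passed against 1.15% of all probe sets, with 5 genes at an unadjusted p under 0.05 against 10.7%. At 25 µg/L sertraline 0 passed against 0.0645%, with 1 gene at an unadjusted p under 0.05 against 3.99%. At 250 µg/L sertraline 0 passed against 0% of all probe sets, with 2 genes at an unadjusted p under 0.05 against 6.34%. These are limma calls. The arrays of the exposed and control groups did not overlap in 8 genes at low fluoxetine, 8 at high fluoxetine, 7 at low sertraline and 4 at high sertraline, where the shares of all probe sets were 25.3%, 14.8%, 9.78% and 14.3%. The share of the 50 genes with a small unadjusted p was 8% at low and 10% at high fluoxetine, and 2% at low and 4% at high sertraline. Except at low fluoxetine, these lay near the shares of all probe sets. The share of the 50 without overlap was below that of all probe sets at low fluoxetine and high sertraline. At high fluoxetine it lay near that of all probe sets, and at low sertraline, with 7 genes, it was above.

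The 4 comparisons share their control arrays. The intervals say how large a difference could have escaped. In each of the 4 comparisons with control, the 95% intervals of all 50 genes lay within 1 of 0 on the log2 scale. A 2-fold difference in signal lay outside every one of them. For all probe sets that held for 95.1% at 25 µg/L and 96.6% at 250 µg/L fluoxetine, and for 97.8% and 97.2% at the same concentrations of sertraline. The tighter bound of 0.5, a fold of 1.41, held for 42 genes in low fluoxetine against 71.2% of all probe sets and for 42 in high fluoxetine against 76.0%. It held for 47 genes in low sertraline against 83.0% and for 40 in high sertraline against 80.0%. The widest intervals reached down to -0.85, for psmd5 at 25 µg/L fluoxetine, and up to 0.78, for psme1 at 250 µg/L fluoxetine. The intervals carry no correction for how many probe sets were fitted, and a p that misses the threshold does not show that values did not differ. The intervals bound the measured signal. In the 6 genes of lowest level, named below, background compresses differences, so a larger difference in RNA could have escaped there. In RNA from whole larvae, fewer cells of a type and less RNA per cell cannot be told apart.

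**Figure D1:**
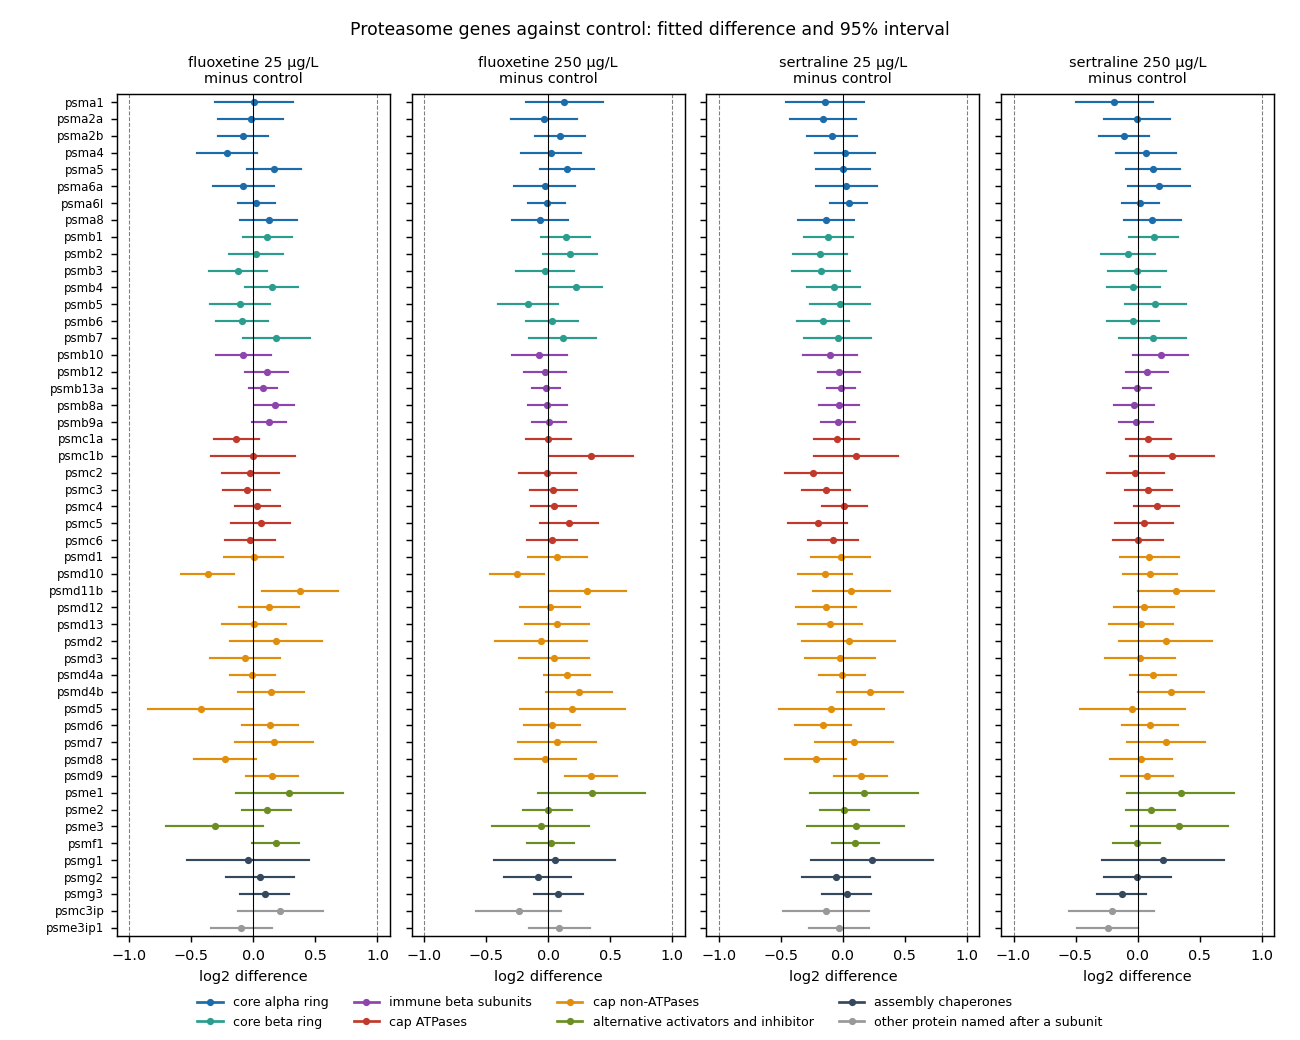
Log2 difference from control (x axis) of each of the 50 genes (y axis, grouped by role) in the 4 exposed groups, with points for the limma estimate, bars for its 95% interval and dashed lines at -1 and 1. Every bar stays between the dashed lines, and the widest belong to genes of the cap non-ATPases, activators and assembly chaperones.

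Taken over all levels, the genes varied among replicates about as much as all probe sets did. The median SD within groups was 0.135 for the 50 genes and 0.14 for all probe sets, and the median range of the 5 group means was 0.25 and 0.24. Of the 50 genes, 35 had a mean level of 6 or more. Among these the median SD within groups was 0.139, below the 0.161 of the 5224 probe sets at that level. The median range of group means was 0.239 for these genes and 0.288 for those probe sets. The 6 genes below 3.90, the 40% quantile of probe set means, were 4 immune beta subunits, psma6l and psmc3ip, and a difference in these is compressed towards 0 by background.

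The alpha ring of the core frames the entrance for substrates. Its members other than psma6l averaged 7.12 to 9.71, and psma6l, an additional alpha-type gene, averaged 2.28. In low fluoxetine 4 of the 8 were above control and 4 below, with differences from -0.22 to 0.16, where 64.0% of all probe sets were above. The median of all probe sets was 0.06 there, and -0.0093 without the 40% of lowest mean. In high fluoxetine the differences ran from -0.06 to 0.15, at 25 µg/L sertraline from -0.16 to 0.05, and at 250 µg/L sertraline from -0.19 to 0.17. The intervals of all 8 stayed within 0.5 of 0 in the first 3 of these comparisons and those of 7 in the last.

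The alpha-ring genes with the smallest p for any difference among groups were psma8 and psma4. For psma8 the control arrays read 9.70, 9.70 and 9.72, those of fluoxetine at 25 µg/L 9.68, 10.06 and 9.74, and those at 250 µg/L 9.74, 9.63 and 9.56. The arrays of sertraline read 9.44, 9.67 and 9.60 at 25 µg/L and 9.75, 9.73 and 10.01 at 250 µg/L. A single array stood well above the others in low fluoxetine and in high sertraline, the low sertraline arrays lay below control, and the high sertraline arrays lay above it by little in 2 of 3. The largest difference of psma8 from control was -0.14 (SE 0.10, adjusted p = 0.999) at 25 µg/L sertraline. For psma4, an alpha-ring subunit, control read 8.62, 8.68 and 8.95 and fluoxetine at 25 µg/L 8.39, 8.62 and 8.59. The groups touched at 8.62, and the difference was -0.22 (95% interval -0.46 to 0.03, adjusted p = 0.294).

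The beta ring holds the proteolytic sites. The 3 proteolytic subunits had intervals within 0.5 of 0 in every comparison with control. For psmb5, which carries the chymotrypsin-like activity, the arrays read 6.88, 6.87 and 6.88 in control, 6.61, 6.86 and 6.83 at 25 µg/L fluoxetine, 6.48, 6.91 and 6.74 at 250 µg/L fluoxetine, 7.0, 6.75 and 6.80 at 25 µg/L sertraline, and 6.86, 7.07 and 7.13 at 250 µg/L sertraline. Low fluoxetine lay just below control, and every other group overlapped it. For psmb6, the caspase-like subunit, the arrays read 8.85, 8.70 and 9.0 in control, 8.54, 8.91 and 8.82 at 25 µg/L fluoxetine, 8.86, 8.98 and 8.80 at 250 µg/L fluoxetine, 8.70, 8.65 and 8.72 at 25 µg/L sertraline, and 8.82, 8.75 and 8.88 at 250 µg/L sertraline. Each group overlapped control, and the largest difference was -0.16 (SE 0.10, adjusted p = 0.999) at 25 µg/L sertraline. For psmb7, the trypsin-like subunit, the arrays read 10.00, 9.96 and 10.01 in control, 9.95, 10.53 and 10.04 at 25 µg/L fluoxetine, 10.09, 10.20 and 10.03 at 250 µg/L fluoxetine, 10.04, 9.85 and 9.95 at 25 µg/L sertraline, and 10.13, 9.98 and 10.22 at 250 µg/L sertraline. A single array of low fluoxetine stood high, and high fluoxetine lay just above control. The difference of low fluoxetine from control was 0.19 (95% interval -0.09 to 0.46, adjusted p = 0.383), and it ran from 0.0063 to 0.30 when single arrays were left out.

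The beta-ring genes with the smallest p for any difference among groups were psmb2 and psmb4, which are not proteolytic. For psmb2 the arrays read 8.42, 8.44 and 8.58 in control, 8.45, 8.69 and 8.35 at 25 µg/L fluoxetine, 8.69, 8.58 and 8.70 at 250 µg/L fluoxetine, 8.35, 8.16 and 8.38 at 25 µg/L sertraline, and 8.35, 8.29 and 8.57 at 250 µg/L sertraline. The high fluoxetine arrays were at or above the highest control array and the low sertraline arrays below the lowest. The test for any difference gave an adjusted p of 0.243. For psmb4 the arrays read 9.35, 9.56 and 9.22 in control, 9.49, 9.65 and 9.43 at 25 µg/L fluoxetine, 9.66, 9.60 and 9.53 at 250 µg/L fluoxetine, 9.35, 9.25 and 9.30 at 25 µg/L sertraline, and 9.28, 9.21 and 9.52 at 250 µg/L sertraline. Each exposed group overlapped control, and high fluoxetine differed from it by 0.22 (SE 0.10, adjusted p = 0.44). At 25 µg/L sertraline 7 of the 7 beta-ring genes had a fitted difference below 0, with a median of -0.12, where 36.2% of all probe sets were above 0 with a median of -0.03. These values share the same 3 arrays and the same 3 controls.

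**Figure D2:**
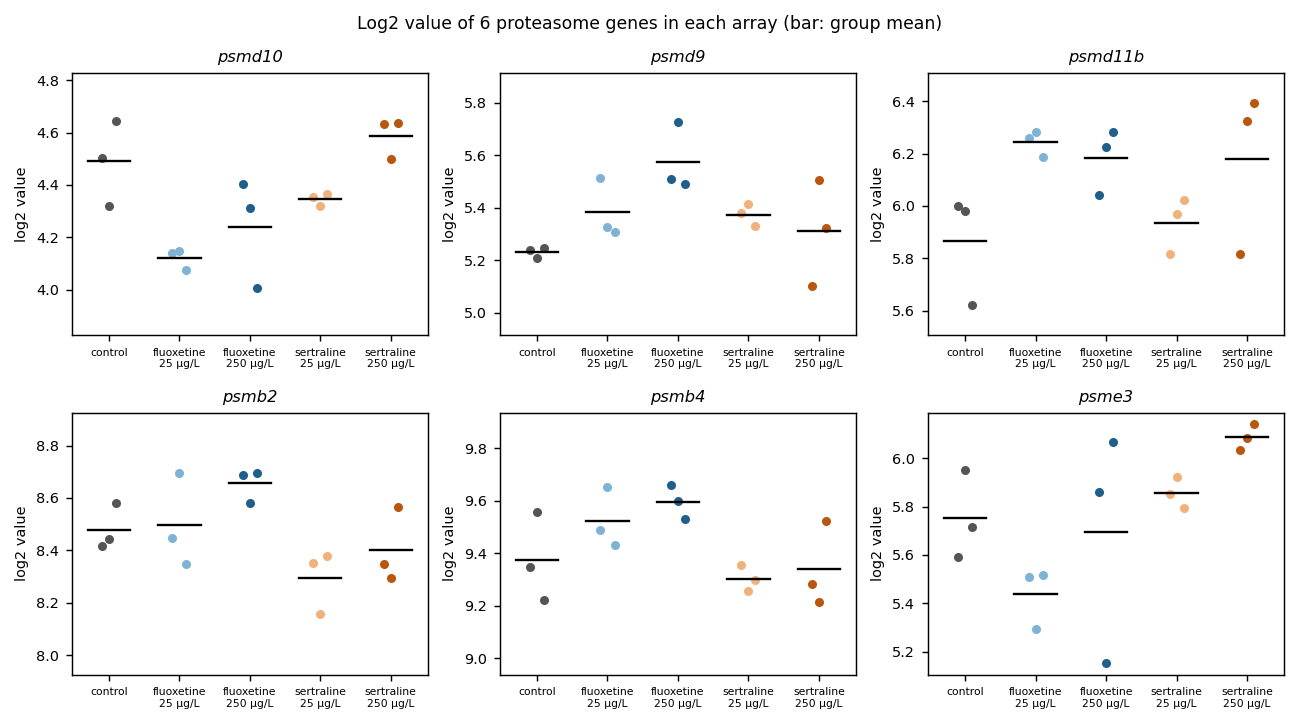
Log2 signal (y axis) of psmd10, psmd9, psmd11b, psmb2, psmb4 and psme3 on each array (points) by group (x axis), with bars at the group means. For psmd10 the low fluoxetine arrays lie below all 3 control arrays, and for psmd11b the arrays of both fluoxetine groups lie above all 3.

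The immune beta subunits replace their constitutive counterparts in mammalian leukocytes and in interferon-treated cells. In the larvae their signals were low, and all but psmb10 had means below 3.90. Over the 15 arrays psmb8a read 2.20 to 2.63, psmb9a 2.64 to 2.99, psmb12 2.21 to 2.61, psmb13a 2.13 to 2.34, and psmb10 3.70 to 4.27. In low fluoxetine psmb8a read 2.31, 2.43 and 2.63, where control read 2.35, 2.24 and 2.26. The groups overlapped, and the difference was 0.17 (SE 0.07, adjusted p = 0.239). For psmb10 the largest difference from control, 0.18 (95% interval -0.04 to 0.41, adjusted p = 0.823), was at 250 µg/L sertraline, where the arrays read 4.27, 3.95 and 4.12 against 3.70, 4.04 and 4.04 in control. The groups overlapped, and leaving out single arrays gave 0.07 to 0.27.

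Markers of leukocytes had mixed levels on the arrays. Of 13 markers 10 were measured, and their mean log2 signal per array ranged from 3.32 to 3.49 in control, 3.41 to 3.69 in low and 3.42 to 3.60 in high fluoxetine, and 3.34 to 3.45 in low and 3.53 to 3.60 in high sertraline. In each comparison with control 0 of the 10 passed in limma. The shares of all probe sets that passed were 2.53% and 1.15% at 25 and 250 µg/L fluoxetine. At the same concentrations of sertraline they were 0.0645% and 0%. At an unadjusted p under 0.05 there were 1 and 0 markers at 25 and 250 µg/L fluoxetine. For sertraline there were 0 at 25 and 3 at 250 µg/L. The shares of all probe sets at that p were 19.2%, 10.7%, 3.99% and 6.34%. The markers ptprc, mpx, spi1b and rag1, which define leukocytes, neutrophils, early myeloid cells and immature lymphocytes, averaged 3.18, 2.80, 2.62 and 1.94. The lysozyme gene lyz averaged 6.06 and the actin regulators coro1a and lcp1 4.81 and 3.74. At 250 µg/L sertraline the 3 with a small unadjusted p were lcp1, coro1a and cd74a, with differences from control of 0.73, 0.63 and 0.38 (adjusted p = 0.471, 0.414 and 0.539) and every array above control. In the same comparison ptprc, mpx and spi1b differed by -0.14, -0.17 and -0.04. Their part in the levels of the immune subunits was not tested.

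The cap ATPases, which unfold the substrate, averaged 7.86 to 8.97. In low fluoxetine their differences from control ran from -0.14 to 0.06, and at 25 µg/L sertraline from -0.24 to 0.11. At the higher concentration 6 of 7 were above control with each drug, with medians of 0.04 for fluoxetine and 0.09 for sertraline, where 41.1% and 33.4% of all probe sets were above. For psmc5 the arrays read 7.87, 8.02 and 8.08 in control, 7.87, 8.26 and 8.02 at 25 µg/L fluoxetine, 8.30, 8.10 and 8.09 at 250 µg/L fluoxetine, 7.67, 7.78 and 7.92 at 25 µg/L sertraline, and 7.94, 8.02 and 8.17 at 250 µg/L sertraline. High fluoxetine lay just above control and the other groups overlapped it; the largest difference was -0.20 (SE 0.11, adjusted p = 0.999) at 25 µg/L sertraline. For psmc1b high fluoxetine read 8.09, 8.15 and 7.95 and control 7.36, 7.94 and 7.86. The groups all but touched, a single control array stood low, and the difference was 0.34 (95% interval 0.0042 to 0.68, adjusted p = 0.462). The other probe sets of psmc1b gave 0.13 and 0.02 for the same comparison, and the main one is of a type that can detect more than 1 transcript.

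The cap proteins without ATPase activity bind ubiquitin, remove it and hold the cap together, and by name this group takes in psmd5, psmd9 and psmd10, known in mammals and yeast as chaperones that build the ATPase ring. The differences from control with the smallest p among the 50 genes were in psmd10 and psmd9. For psmd10 (NCBI Gene 403085), also known as gankyrin, the control arrays read 4.50, 4.32 and 4.65, those of fluoxetine 4.14, 4.15 and 4.07 at 25 µg/L and 4.41, 4.31 and 4.01 at 250 µg/L, and those of sertraline 4.35, 4.32 and 4.37 at 25 µg/L and 4.63, 4.50 and 4.64 at 250 µg/L. The low fluoxetine arrays lay below all control arrays, the high fluoxetine arrays overlapped them, and the sertraline arrays were within or close to their range. In low fluoxetine the difference was -0.37 (SE 0.10, 95% interval -0.59 to -0.15, unadjusted p = 0.00283, adjusted p = 0.0778). In high fluoxetine it was -0.25 (adjusted p = 0.36), and the test for any difference among the groups gave an adjusted p of 0.0814. Its only probe set had a mean of 4.36, below the median of every array. After quantile normalization psmd10 passed at 25 µg/L fluoxetine, at -0.45 (adjusted p = 0.0373), and when single arrays were left out its adjusted p ranged from 0.0541 to 0.27.

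For psmd9 (NCBI Gene 436709) the arrays read 5.24, 5.21 and 5.25 in control, 5.51, 5.33 and 5.31 at 25 µg/L fluoxetine, 5.51, 5.73 and 5.49 at 250 µg/L fluoxetine, 5.38, 5.41 and 5.33 at 25 µg/L sertraline, and 5.10, 5.51 and 5.32 at 250 µg/L sertraline. All arrays of both fluoxetine groups and of low sertraline lay above control, and high sertraline overlapped it. In high fluoxetine the difference was 0.34 (SE 0.10, 95% interval 0.13 to 0.56, adjusted p = 0.147). A second psmd9 probe set, with a mean of 4.43, gave the opposite sign there, at -0.42 (adjusted p = 0.257), so the direction of psmd9 depends on the probe set.

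Among the other cap proteins, psmd11b (NCBI Gene 322265), a counterpart of a scaffold subunit of the lid, and psmd5 were singled out after their values were seen. For psmd11b the arrays read 6.0, 5.98 and 5.62 in control, 6.26, 6.28 and 6.19 at 25 µg/L fluoxetine, 6.04, 6.23 and 6.28 at 250 µg/L fluoxetine, 5.82, 5.97 and 6.02 at 25 µg/L sertraline, and 5.82, 6.33 and 6.39 at 250 µg/L sertraline. Both fluoxetine groups lay above control, 1 control array stood low, and both sertraline groups overlapped control. The differences were 0.38 (SE 0.14, adjusted p = 0.199) at 25 µg/L fluoxetine, 0.32 (adjusted p = 0.457) at 250 µg/L fluoxetine and 0.31 (adjusted p = 0.783) at 250 µg/L sertraline. For psmd5 the arrays read 3.99, 3.39 and 4.29 at 25 µg/L fluoxetine, 4.19, 4.70 and 4.65 at 250 µg/L fluoxetine and 4.16, 4.44 and 4.35 in control. The low fluoxetine arrays scattered most, and both fluoxetine groups overlapped control. Its difference of 0.62 (SE 0.20, 95% interval 0.20 to 1.05, adjusted p = 0.232) between 250 and 25 µg/L fluoxetine was the only one of the 50 in that comparison whose interval reached past 1; 96.5% of all probe sets stayed within it.

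The mean of the 4 exposed groups against control pools the drugs and asks for a response to either. Of the 50 genes 0 passed against 0.690% of all probe sets, and 3 had an unadjusted p under 0.05 against 7.95%. These were psmd11b at 0.27 (adjusted p = 0.564), psmd9 at 0.18 (adjusted p = 0.578) and psmd4b, a counterpart of a ubiquitin receptor, at 0.22 (adjusted p = 0.603). The second psmd9 probe set gave the opposite sign here too, at -0.21 (adjusted p = 0.704). The psmd4b arrays of high fluoxetine, at 6.58, 6.64 and 6.61, lay above the control arrays at 6.33, 6.45 and 6.32, and each of the other exposed groups overlapped control. In the test for any difference among the 5 groups 0 of 50 passed against 2.79% of all probe sets, and 5 had an unadjusted p under 0.05 against 19.4%: psmd10, psmb2, psmd9, psme3 and psmb4.

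The alternative activators open the core without the ATPases. The genes psme1 and psme2 encode the subunits of the activator that interferon induces in mammals, and psme3 a nuclear relative. For psme1 the arrays read 3.93, 3.97 and 3.83 in control, 4.15, 4.59 and 3.87 at 25 µg/L fluoxetine, 4.75, 4.03 and 4.01 at 250 µg/L fluoxetine, 4.06, 4.18 and 4.01 at 25 µg/L sertraline, and 4.30, 4.06 and 4.42 at 250 µg/L sertraline. Low fluoxetine overlapped control and the other exposed groups lay above it, with 1 array far above the rest in each fluoxetine group. The difference at 250 µg/L fluoxetine was 0.35 (SE 0.20, adjusted p = 0.611). For psme2 the differences from control ran from -0.0042 to 0.11, and every group overlapped control.

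For psme3 the arrays read 5.59, 5.95 and 5.71 in control, 5.51, 5.29 and 5.52 at 25 µg/L fluoxetine, 5.86, 5.15 and 6.07 at 250 µg/L fluoxetine, 5.85, 5.92 and 5.79 at 25 µg/L sertraline, and 6.04, 6.08 and 6.14 at 250 µg/L sertraline. Low fluoxetine lay below control, high sertraline above it, and high fluoxetine spanned both. The range of its group means, 0.65, was the widest of the 50 genes. The difference at 250 µg/L sertraline was 0.33 (SE 0.18, adjusted p = 0.82), and the test for any difference gave an adjusted p of 0.245. Without the second high fluoxetine array, the lowest of the 15, that adjusted p was 0.0278.

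The proteasome inhibitor psmf1 and the chaperones that assemble the core did not pass against control in any exposed group. For psmf1 low fluoxetine read 5.01, 5.34 and 4.99 against 4.90, 4.90 and 4.99 in control. A single array carried the difference of 0.18 (95% interval -0.0083 to 0.37, adjusted p = 0.275). A second psmf1 probe set, with a mean of 3.98, gave -0.115 there (SE 0.19, adjusted p = 0.723). The chaperone psmg3 differed from control by at most -0.13 (SE 0.09, adjusted p = 0.844), at 250 µg/L sertraline, where it read 6.80, 7.01 and 7.07 against 7.13, 7.08 and 7.06. The chaperone psmg1, which helps to build the alpha ring, scattered widely, with control arrays at 4.72, 5.18 and 5.31. Its largest difference from control was 0.24 (SE 0.23, 95% interval -0.25 to 0.73, adjusted p = 0.999), at 25 µg/L sertraline. A second psmg1 probe set, with a mean of 4.30, gave 0.04 there (SE 0.11, adjusted p = 0.999).

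The comparison of the concentrations asks whether the level followed the dose. For fluoxetine 0 of 50 genes passed against 0.252% of all probe sets, with 4 at an unadjusted p under 0.05 against 18.8%. Of the 50, 30 were above 0, with a median of 0.06, where 35.6% of all probe sets were above 0 with a median of -0.07. The median of the 50 genes was -0.015 with the GAPDH difference as a covariate. It was -0.0009 without low fluoxetine replicate 3, so its sign is not settled. Without the 40% of probe sets of lowest mean, the median over the remaining probe sets was 0.0045. For sertraline 0 of 50 passed against 0% of all probe sets, with 8 at an unadjusted p under 0.05 against 4.86%. These 8, psmb10, psmb1, psmc3, psmd6, psma8, psmd10, psmc5 and psmd8, had higher values at 250 µg/L, by 0.22 to 0.29, with adjusted p-values from 0.803 to 1; 2.97% of all probe sets were higher at that p. The 3 arrays of 250 µg/L lay above the 3 of 25 µg/L in 9 genes and below them in 0, where 5.49% of all probe sets lay above and 6.15% below.

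For psmb1, a beta-ring subunit, the sertraline arrays read 9.03, 9.05 and 9.15 at 25 µg/L and 9.41, 9.17 and 9.38 at 250 µg/L, with control at 9.24, 9.03 and 9.31. The sertraline groups did not overlap, and each overlapped control. For psmd6, a lid subunit, they read 8.73, 8.73 and 8.96 at 25 µg/L and 9.17, 8.88 and 9.15 at 250 µg/L, with control at 9.05, 8.87 and 8.97. The sertraline groups overlapped at 1 array each, and the difference was 0.26 (SE 0.10, adjusted p = 0.936).

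Of the 50 genes, 41 (82%) had a fitted difference above 0 between 250 and 25 µg/L sertraline, with a median of 0.13, where 43.1% of all probe sets were above 0 with a median of -0.01. By role these were 7 of 7 beta-ring genes, 7 of 7 ATPases, 13 of 14 other cap proteins, 5 of 5 immune beta genes, 5 of 8 alpha-ring genes, 3 of 4 activators and inhibitors and 1 of 3 assembly chaperones. The genes share the same 6 arrays and are not independent counts. By array, the median deviation of the 50 genes from their control means was -0.049, -0.10 and -0.034 at 25 µg/L and 0.037, -0.014 and 0.17 at 250 µg/L. The third array of 250 µg/L stood apart, with 42 of 50 genes above the control mean, and the control arrays had medians of -0.0036, -0.011 and 0.028. Without that array 36 genes were above 0 and the median was 0.07. With the GAPDH difference as a covariate the median was 0.13.

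**Figure D3:**
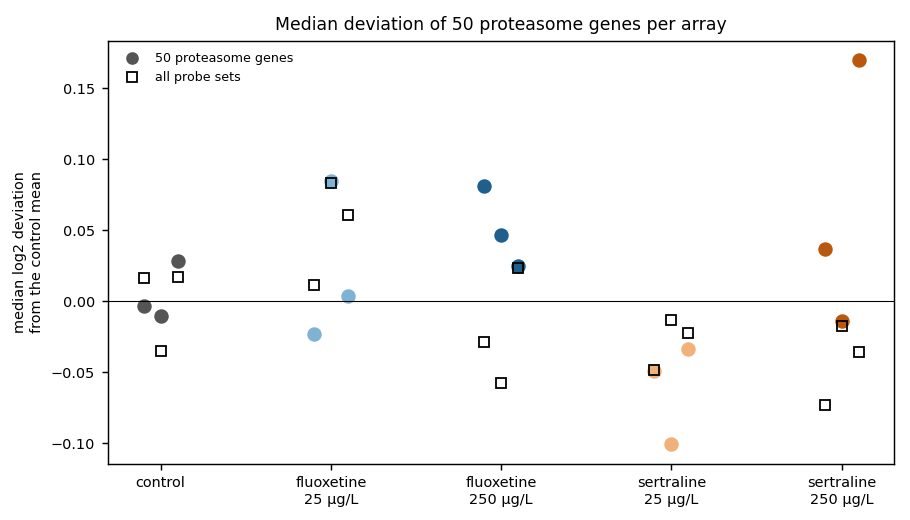
Median deviation from the control mean (y axis, log2) on each of the 15 arrays (x axis, by group), with filled circles for the 50 proteasome genes and open squares for all probe sets. The third array of sertraline at 250 µg/L has the highest circle, at 0.17, and the 3 arrays of sertraline at 25 µg/L have the lowest.

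**Figure D4:**
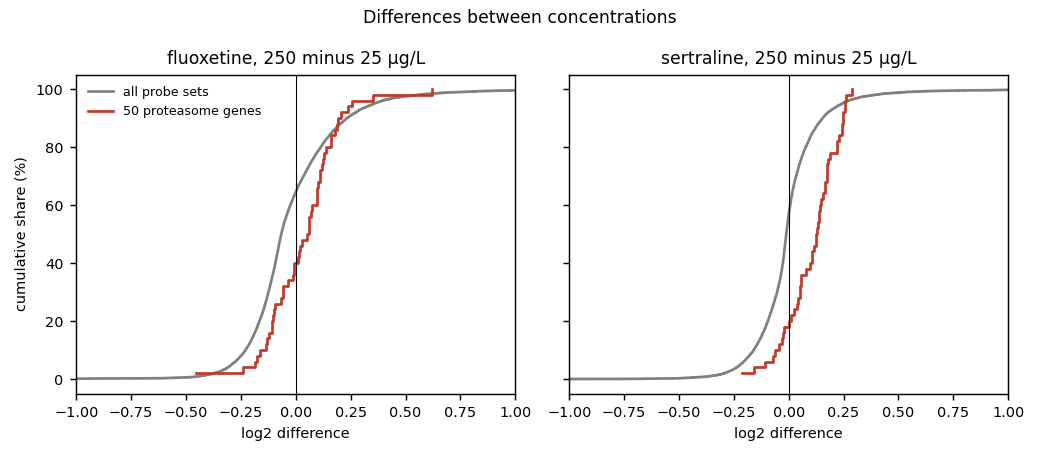
Cumulative share (y axis) of log2 differences between 250 and 25 µg/L (x axis) for the 50 proteasome genes and for all probe sets, with 1 panel for each drug. For sertraline the curve of the 50 genes lies to the right of that of all probe sets, with medians of 0.13 and -0.01.

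The drugs were compared at matched concentrations, as 2 pairs. In the low pair 0 of 50 genes passed against 2.10% of all probe sets, and 11 had an unadjusted p under 0.05 against 28.0%. Sertraline minus fluoxetine was above 0 in 15 genes and below in 35, with a median of -0.08, where 34.8% of all probe sets were above 0 with a median of -0.07. Without the 40% of probe sets of lowest mean, the median over the remaining probe sets was 0.0022. The smallest p was that of psmd6, at -0.29 (95% interval -0.52 to -0.07, adjusted p = 0.116). In the high pair 0 of 50 passed against 1.37%, and 11 had an unadjusted p under 0.05 against 12.0%. The median was 0.02, with 27 genes above 0 and 23 below, where 39.4% of all probe sets were above 0 with a median of -0.02. The median of the 50 genes was -0.0095 without the third fluoxetine array and -0.04 without the third sertraline array, so its sign is not settled. The smallest p was that of psmd10, whose sertraline arrays lay above all fluoxetine arrays, at 0.35 (95% interval 0.13 to 0.56, adjusted p = 0.134). For psmb5 the difference was 0.31 (95% interval 0.06 to 0.55, adjusted p = 0.261). All 50 intervals lay within 1 of 0 in both pairs, which held for 95.7% of all probe sets in the low and 96.7% in the high pair.

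The interaction asks whether the step from 25 to 250 µg/L differed between the drugs. Of 50 genes 0 passed in limma against 0.00645% of all probe sets, which is 1 probe set, and 3 had an unadjusted p under 0.05 against 9.25%. They were psma8 at 0.44 (SE 0.15, adjusted p = 0.512), psmd6 at 0.36 (SE 0.15, adjusted p = 0.524) and psme3ip1 at -0.40 (SE 0.16, adjusted p = 0.521). The other probe sets of psme3ip1 gave -0.48, 0.11 and -0.10 (adjusted p = 0.619, 0.743 and 0.805), so its sign depends on the probe set. A positive value means that the step was larger, or less negative, with sertraline. For 49 of the 50 genes the interval stayed within 1 of 0, against 92.0% of all probe sets.

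Genes that act beside the proteasome were read from a list of partners. Of 71 genes for ubiquitin, its conjugating enzymes, proteasome receptors and related factors, 52 were measured. In the comparisons with control 1 of the 52 passed at 25 µg/L fluoxetine, where 2.53% of all probe sets did. At 250 µg/L fluoxetine and at 25 and 250 µg/L sertraline 0 passed, against 1.15%, 0.0645% and 0%. At an unadjusted p under 0.05 in limma there were 12, 11, 4 and 6 in the 4 comparisons. These are 23.1%, 21.2%, 7.69% and 11.5% of the 52, where the shares of all probe sets were 19.2%, 10.7%, 3.99% and 6.34%. The gene that passed was zfand5a, whose mammalian counterpart binds ubiquitin and the proteasome and stimulates degradation. Its arrays read 9.10, 9.08 and 9.14 in control, 7.94, 7.83 and 8.07 at 25 µg/L fluoxetine, 8.97, 8.66 and 8.94 at 250 µg/L fluoxetine, 8.81, 8.38 and 8.66 at 25 µg/L sertraline, and 8.64, 8.83 and 8.67 at 250 µg/L sertraline. Low fluoxetine lay far below every other array, and every array of the other exposed groups also lay below control. In low fluoxetine zfand5a fell by 1.16 (SE 0.11, adjusted p = 9.13e-05), and it was higher by 0.91 (adjusted p = 0.00391) at 250 than at 25 µg/L. In the mean of the exposed groups it fell by 0.57 (adjusted p = 0.0105), a call lost without any 1 of the control arrays (adjusted p = 0.0558 to 0.0775).

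Its paralogue zfand5b and the polyubiquitin gene ubb passed in other comparisons and were singled out after their values were seen. For zfand5b the arrays read 9.87, 9.73 and 9.73 in control, 9.85, 9.64 and 9.78 at 25 µg/L fluoxetine, 9.92, 9.99 and 10.21 at 250 µg/L fluoxetine, 9.29, 9.34 and 9.36 at 25 µg/L sertraline, and 9.53, 9.57 and 9.67 at 250 µg/L sertraline. Both sertraline groups lay below control and high fluoxetine above it. Sertraline minus fluoxetine was -0.43 (SE 0.08, adjusted p = 0.0205) in the low and -0.45 (adjusted p = 0.0189) in the high pair. Leaving out single arrays of these groups ended each call in 3 of 6 fits, with adjusted p-values up to 0.097 and 0.0762.

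The gene ubb encodes a chain of fused ubiquitin units and was measured by a pair of probe sets. On the one with the higher mean the arrays read 12.06, 12.19 and 12.29 in control, 12.98, 13.03 and 12.54 at 25 µg/L fluoxetine, 13.30, 12.89 and 13.04 at 250 µg/L fluoxetine, 12.03, 11.67 and 11.95 at 25 µg/L sertraline, and 12.23, 11.51 and 12.66 at 250 µg/L sertraline. Both fluoxetine groups lay above control and low sertraline below it. The differences were 0.67 (adjusted p = 0.17) and 0.90 (adjusted p = 0.117) at 25 and 250 µg/L fluoxetine, and the test for any difference among groups passed at an adjusted p of 0.0432. That call ended in 12 of 15 fits without a single array, with adjusted p-values from 0.00937 to 0.109.

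On the other ubb probe set the arrays read 10.47, 10.28 and 10.36 in control, 11.34, 11.35 and 11.31 at 25 µg/L fluoxetine, 11.21, 11.37 and 11.12 at 250 µg/L fluoxetine, 10.53, 10.15 and 10.33 at 25 µg/L sertraline, and 10.59, 10.61 and 10.87 at 250 µg/L sertraline. The fluoxetine arrays lay above all others. The high sertraline arrays also lay above control, with a difference of 0.32 (SE 0.10, adjusted p = 0.566). In the mean of the exposed groups this probe set was 0.52 above control (adjusted p = 0.011). On that probe set ubb rose by 0.96 (SE 0.10, adjusted p = 0.000212) at 25 µg/L and by 0.86 (SE 0.10, adjusted p = 0.00135) at 250 µg/L fluoxetine, and both calls held without any single array of the groups compared. Sertraline minus fluoxetine was -0.995 (adjusted p = 0.000305) in the low and -0.55 (adjusted p = 0.0238) in the high pair. The choice of the probe set with the higher mean therefore decided whether ubb passed against control. Ubiquitin units are nearly identical between the polyubiquitin and ubiquitin fusion genes, so signal from related transcripts is possible on either probe set.

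**Figure D5:**
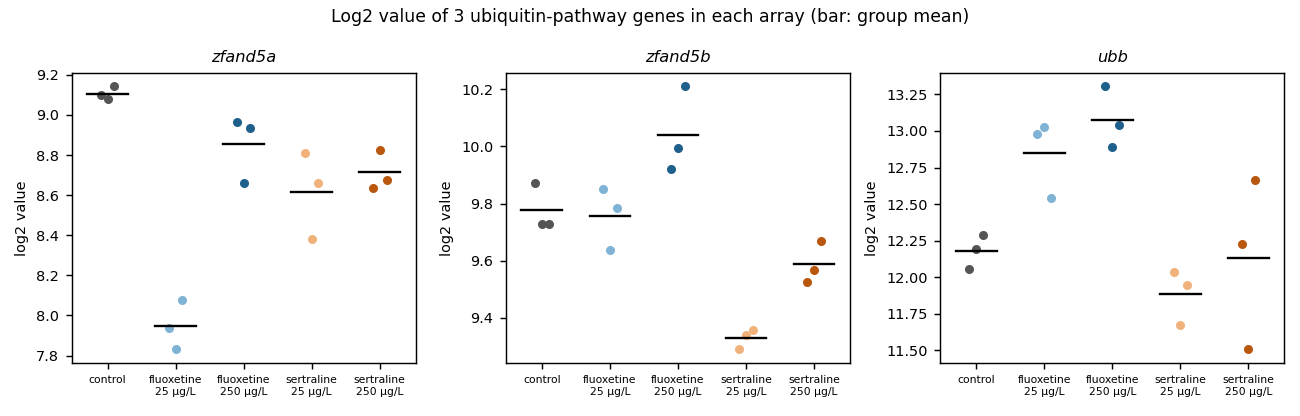
Log2 signal (y axis) of zfand5a, zfand5b and the ubb probe set with the higher mean on each array (points) by group (x axis), with bars at the group means. The low fluoxetine arrays of zfand5a lie between 7.83 and 8.07, below every other array of the gene, and the ubb arrays of both fluoxetine groups lie above control.

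Of 22 genes of interferon signalling and antigen presentation, 11 were measured. Of these, 1 (cd74a) also stands among the leukocyte markers. In the comparisons with control 1 passed, socs1a, a feedback inhibitor of cytokine signalling, at 250 µg/L fluoxetine, where 1.15% of all probe sets did. At 25 µg/L fluoxetine and at 25 and 250 µg/L sertraline 0 passed, against 2.53%, 0.0645% and 0%. At an unadjusted p under 0.05 in limma there were 2 at 25 and 1 at 250 µg/L fluoxetine. For sertraline there were 1 at 25 and 4 at 250 µg/L. These are 18.2%, 9.09%, 9.09% and 36.4% of the 11, where the shares of all probe sets were 19.2%, 10.7%, 3.99% and 6.34%. The socs1a arrays read 5.67, 5.72 and 4.95 in control, 6.59, 6.57 and 6.09 at 250 µg/L fluoxetine and 6.25, 6.10 and 6.21 at 250 µg/L sertraline. Both groups lay above control, and 1 control array stood low. In high fluoxetine socs1a rose by 0.97 (SE 0.21, adjusted p = 0.0461), a call that ended in 5 of 6 fits without a single array, with adjusted p-values up to 0.18. A second socs1a probe set, with a mean of 3.09, did not pass there, at 1.105 (SE 0.39, adjusted p = 0.281).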

How the data were processed

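The authors deposited 1 value per probe set and array, taken here as log2 from the range of the values, since no header states the scale, and used with no further normalization. GCRMA and Partek are named in the submitters' processing notes, with neither role nor version. Labelling started from 5 µg of total RNA on every array, per the labels. The 115 Affymetrix control probe sets were left out. Of the other 15502, 10795 had 1 gene symbol in the platform annotation of 2016, and all 50 genes matched RefSeq gene names by Entrez number. No genome, promoter or protein sequence was used here.

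One mean per group was estimated in limma 3.58.1 (R 4.3.3) from the 15 arrays together, with variances moderated by a prior of 2.37 degrees of freedom added to 10 residual ones. P-values were adjusted by Benjamini-Hochberg within each of 11 comparisons. The fit was tested on simulated data. The GAPDH differences of groups of 3 arrays were compared by exact permutation tests. The genes named are the pair with the smallest p for any difference in each of 7 role groups, the proteolytic and immune subunits, psme1 and psme2, and partner genes that passed against control. Others are marked where named, except for members listed for a small unadjusted p and the leukocyte markers. No rule set beforehand chose which of these markers are named. Members and gene lists were chosen with earlier results of these data known.

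Alternatives comprised per-array median centring, quantile normalization, a filter on the 40% of probe sets of lowest mean, a trended and robust prior, array weights, a replicate block, fits of only the compared groups, the GAPDH difference as a covariate, a fit without the 2 arrays where it was largest, other choices of probe set per gene, and fits without each array. Running the partner genes and the count above 0 through these was added after seeing the data. Tables and figures were made with Python 3.11.15 and matplotlib 3.10.9.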

Additional observations from a re-analysis of the deposited data

How the results depend on the processing

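Under the alternatives, 190 of 198 counts of proteasome genes that passed stayed at 0. Many of these counts say little about the proteasome genes, since almost no probe set passed in those comparisons. Against control, at most 0.181% of the probe sets tested passed with either concentration of sertraline. The largest share was 0.645% for sertraline at 250 against 25 µg/L and 0.103% for the interaction. With quantile normalization 1 gene, psmd10, passed at 25 µg/L fluoxetine against control (2.44% of all probe sets). The same gene passed in the test for any difference (adjusted p = 0.0433, against 2.77% of all probe sets). With array weights 1 gene, psmb5, passed between the drugs at 250 µg/L (0.42, adjusted p = 0.032, against 4.31% of all probe sets). In that setting 1 gene, psmd10, passed for any difference (adjusted p = 0.0486, against 4.36% of all probe sets). Leaving out each array in turn gave 0 to 1 genes for fluoxetine at 250 against 25 µg/L, 0 to 2 between the drugs at 25 µg/L, 0 to 1 for any difference, and 0 to 0 elsewhere. The first 2 of these arose without low fluoxetine replicate 1. Then psmc3ip, which is not a subunit, passed in both (adjusted p = 0.0452 and 0.0425) and psmb8a in the second (adjusted p = 0.0499). In those fits 155 and 820 of all 15502 probe sets passed, against 39 and 325 with all arrays. The third arose without high fluoxetine replicate 3, for psmd10 (adjusted p = 0.0411), or replicate 2, for psme3. All probe sets passed at shares of 2.37% and 2.22% in those fits. The median difference moved beyond the spread between replicates in 1 of 161 cases: for fluoxetine at 250 against 25 µg/L it was -0.015 with the GAPDH difference as a covariate. The sign of 4 medians is not settled. At 25 µg/L fluoxetine the median was -0.0025 after median centring; for fluoxetine at 250 against 25 µg/L it was -0.0009 without low fluoxetine replicate 3; between the drugs at 250 µg/L it was -0.0095 and -0.04 without replicate 3 of fluoxetine or of sertraline, and -0.00054 with the mean over a gene's probe sets; for the mean of the exposed groups it was -0.011 without control replicate 1. Single genes were set against 561 alternatives. The proteasome genes followed singly were the pair of smallest p in each role group, the proteolytic and immune subunits, psme1 and psme2. Each was followed only in its comparison with control of smallest p. Other members named here, such as psmd11b, psmd5, psmd4b, psmb1 and psmd6, were not followed singly. The genes followed kept their side of the threshold there in all but 1 alternative (psmd10). For those followed at 25 or 250 µg/L sertraline this says little, since at most 0.181% of all probe sets passed there. The changes listed above for other comparisons are not part of that count. The calls of other genes were lost in 22 for socs1a, 15 for ubb, 10 for zfand5b and 6 for zfand5a. The cause of these changes was not tested.

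Whether the replicate numbers pair the arrays was not settled, since correlations of their deviations spread widely. Deviations of same-numbered arrays of different groups correlated at a median of 0.03 (-0.32 to 0.40, 10 of 30 pairs over 0.1). For arrays of other numbers in different groups the median was 0.0027 (-0.46 to 0.40, 17 of 60 pairs over 0.1). With a replicate block 0 proteasome genes passed in every comparison. Groups of 3 beakers limit what could be detected, and signals near the background, as in 4 of the immune subunits, understate differences.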
